A study of Mus musculus with 2 samples.

Results

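A set of 3 neurotrophic ligands and 5 receptors for such ligands was compared between the tooth and the skin of newborn wild-type mice. The genes were Bdnf, Ntf3 and Gdnf among the ligands, and Ntrk2, Ntrk3, Gfra1, Gfra2 and Ret among the receptors. They were taken by name, as every non-control probe whose gene name on the array was one of these 8. This rule used no values, but the genes were chosen with earlier results of these data known. The 8 genes were carried by 13 of the 55681 probes and by 22 of the 59305 spots of each array, out of 24325 gene names. The tooth and the skin were each represented by 1 sample of total RNA, labelled with a single dye and hybridised to its own array of the same slide. Both labels gave wild-type genotype and postnatal day 0, whereas the methods of the study gave P1 for the mice and C57BL/6J as the wild-type strain. The number of animals and any pooling were not given in the sources used here. The samples were whole tissue, so that nerve endings, Schwann cells, muscle and pigment cells could be present beside epithelium and mesenchyme. The comparison addressed which genes of a wild-type tooth differ from those of wild-type skin.

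Neurotrophins are secreted proteins that keep sensory and sympathetic neurons alive and draw their axons into a target tissue. Bdnf acts on the receptor tyrosine kinase TrkB, the product of Ntrk2, and Ntf3 acts mainly on TrkC, the product of Ntrk3. Ligands of the GDNF family bind a co-receptor held in the membrane by a lipid anchor, Gfra1 for Gdnf and Gfra2 for neurturin, and the pair then engages the receptor tyrosine kinase Ret. In developing teeth and skin these ligands are made largely by epithelium and mesenchyme, whereas Trk receptors and Ret are best known from the neurons and glia that grow in. Ntrk2 and Ntrk3 each give a full-length receptor and a truncated form that lacks the kinase domain.

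The array carried 3 probes for Ntrk2 and 4 for Ntrk3, which separated the forms of each receptor. The transcript variants were those of the array descriptions, in which variant 1 is the full-length kinase form and variant 2 the truncated form of either gene. Bases 16 to 45 of each 60-base probe are shown, 5′ to 3′ as printed on the array, because the receptor results below turn on which form a probe could bind.
Ntrk2, variants 1 and 2: ttgctcctgctcaagttggcgagacattcc
Ntrk2, variant 2: ttttagccgatgcatatatgaactcacaaa
Ntrk2, variant 1: gtgcacgtgtgcagaaactgttgttccagc
Ntrk3, variant 1, probe a: aatcctccatgctttggggaaggccacccc
Ntrk3, variant 1, probe b: ggagattttggcatgtccagggacgtctac
Ntrk3, variant 2, probe a: tctttcccatgacctagagtgacttccaca
Ntrk3, variant 2, probe b: gaggatgtcaatgtttatttcagcaaagga

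In the mm9 build used by the array files, the shared Ntrk2 probe lay at chr13:58979563-58979622 on the plus strand. The variant 2 probe followed 58.4 kb further on, at chr13:59038046-59038105, and the variant 1 probe another 193 kb further, at chr13:59230936-59230995. The Ntrk3 probes lay on the minus strand of chromosome 7. The variant 1 probes were at chr7:85337455-85337514 (probe a) and chr7:85392044-85392103 (probe b). The variant 2 probes, at chr7:85445908-85445967 (probe a) and chr7:85447515-85447574 (probe b), were 1.55 kb apart. Exon, intron and UTR annotation of these positions was not analysed here.

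The remaining genes had 1 probe each, and the same stretch is shown for 3 of them, Bdnf, Gfra2 and Ret, as examples of genes that differed by at least 2-fold. Ntf3, which also did, is given by its values only.
Bdnf: cttgttctctctatggtaaagatattattc
Gfra2: ccaagctccaataaacgtactaggaagcga
Ret: ttgtttttgtaatcaaggtgactaaggaaa

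The Bdnf probe lay at chr2:109566961-109567020 (plus strand), and the Gfra2 probe at chr14:71379586-71379645 (plus strand). The Ret probe lay at chr6:118101791-118101850 (minus strand). The Gdnf probe was at chr15:7787474-7787533 (plus strand) and the Gfra1 probe at chr19:58311604-58311663 (minus strand). The GC content of the 13 probes ran from 35% to 50%.

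All levels below are log2 values of the scanner signal relative to the 75th percentile of the same array, so that 0 is the 75th percentile, and each difference is skin minus tooth. A probe was taken as measured where the scanner software called more than 50% of its spots well above background. This held for 56.7% of probes in tooth (95% exact binomial interval 56.3 to 57.1) and 52.5% in skin (52.1 to 53.0). It also held for 0 and 1 of 308 negative control spots. The lowest signals so called were -4.52 in tooth and -3.73 in skin. No spot of either array was saturated, and the number of arrays limits the precision. The tissue labels were borne out by their markers, as all 6 tooth markers were higher in tooth and all 6 skin markers higher in skin. With 1 array per tissue there was no replicate and no test. The error given with a difference (±) is that of the scanner error model for both spots, and leaves out the variation between animals and extractions.

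All 8 genes were well above background in both tissues with their brightest probe. Bdnf, Ntf3 and Ret were higher in skin, each by at least 2-fold, and Ntrk2, Ntrk3, Gdnf, Gfra1 and Gfra2 were higher in tooth, of which Ntrk3 and Gfra2 reached 2-fold. The direction held for 7 of the 8 genes in all 14 alternative settings, and that of Gfra1 turned in 2. Some of these settings, such as the rules on dim probes, left all 8 differences unchanged, because every gene was well above background in both tissues. Of the 17409 named genes measured in at least 1 tissue, 14.2% reached 2-fold toward skin and 15.5% reached 2-fold toward tooth. Of the 15271 genes measured in both tissues, as all 8 were, 11.4% and 12.3% did so. Beside these backgrounds stood 3 of 8 and 2 of 8 of the neurotrophic genes. Their median difference was -0.50, against -0.04 over all genes, whose quartiles were -0.58 and 0.47. Scaling on spike-in transcripts in place of the 75th percentile moved the median of all genes from -0.04 to -0.68, and so lowered every difference below by 0.63. In whole tissue, fewer cells of a type and less RNA per cell cannot be told apart.

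**Figure D1:**
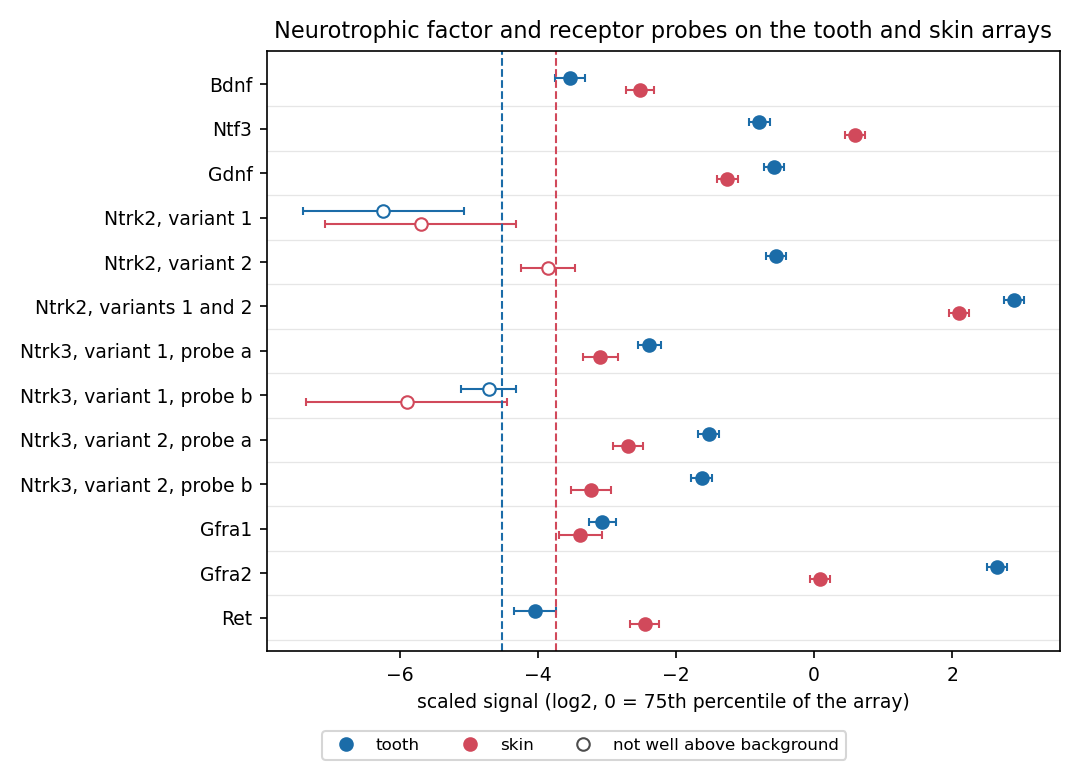
Level of each of the 13 probes (log2, 0 is the 75th percentile of the array) on the tooth array (blue) and the skin array (red), with the scanner model's error as bars, open circles for signals not well above background and dashed lines at the lowest signal called well above background on each array. The tooth point lies to the right for every measured Ntrk and Gfra probe and for Gdnf, and to the left for Bdnf, Ntf3 and Ret.

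Among the ligands, both neurotrophins were higher in skin and Gdnf was higher in tooth. Ntf3, which supports proprioceptive and touch neurons, was at -0.79 in tooth and 0.60 in skin. The difference of 1.39 ± 0.21 was 2.62-fold, and 7.68% of the 15271 genes measured in both tissues were further toward skin. Ntf3 kept a difference of at least 2-fold in 13 of the 14 alternatives, the exception being spike-in scaling (0.75).

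Bdnf, which supports mechanosensory neurons and is also made by neurons themselves, was at -3.53 in tooth and -2.52 in skin. Both signals were dim, with scanner values of 37.0 and 48.2, and lay 0.99 and 1.21 above the lowest signal called well above background on their array. The difference of 1.01 ± 0.30 was 2.01-fold and thus just past 2-fold, which it reached in 9 of the 14 alternatives, with a range of 0.38 to 1.12. The Bdnf probe was designed for 4 transcripts that share it, and the promoter use of this gene was not resolved.

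Gdnf, which supports several classes of peripheral neurons and is made in mesenchyme of many organs, was at -0.58 in tooth and -1.26 in skin. The difference of -0.68 ± 0.21 was 1.60-fold toward tooth, and 18.8% of genes were further in that direction. It passed 2-fold only under spike-in scaling (-1.32).

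Ntrk2 was higher in tooth, and its probes differed in how much. The probe shared by both variants was at 2.89 in tooth and 2.09 in skin, differing by -0.80 ± 0.20 or 1.74-fold. The probe specific to variant 2, the truncated receptor, was at -0.55 in tooth and at -3.85 in skin, where it was not well above background. By the scanner signal, this probe was at least 9.05-fold higher in tooth. For that bound the skin value was set to the lowest signal called well above background. The bound did not hold under other background settings. The measured difference of this probe, -3.30, became -1.53 with normexp background correction and -1.90 with no correction. Its size thus rested on how background was treated, while its direction did not. The shared probe, which also covers variant 2, differed by only 1.74-fold, so that no difference is given for the truncated form itself. The probe specific to variant 1, the kinase form, gave -6.23 in tooth against -5.69 in skin and was well above background in neither. These were means over unlike sets of spots, 9 in tooth and 10 in skin, as described under other observations. Within these arrays, the shared and the truncated-form probes of Ntrk2 differed unequally between the tissues, and the probe specific to the kinase form was not well above background in either.

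Ntrk3 was also higher in tooth, by all 3 of its probes that were measured. Both probes for variant 2, the truncated TrkC receptor, lay higher in tooth. Probe a, the brightest, was at -1.53 in tooth and -2.69 in skin, differing by -1.17 ± 0.27 or 2.24-fold. Probe b was at -1.63 and -3.23, a difference of -1.60 ± 0.33 or 3.03-fold. For variant 1, the kinase form, probe a was at -2.38 in tooth and -3.09 in skin, differing by -0.71 ± 0.31 or 1.63-fold, and probe b was well above background in neither tissue. The differences of the variant 2 probes were larger than that of variant 1 probe a, but the errors of variant 2 probe a and variant 1 probe a overlapped. Normexp background correction reduced the differences to -0.46, -0.52 and -0.07 in the same order, all still toward tooth but none at 2-fold. In skin, variant 2 probe a lay 1.04 above the lowest signal called well above background, and the other measured probes lay closer to it.

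Of the GDNF family receptors, Gfra2 showed the widest difference of the 8 genes. Gfra2, the co-receptor preferred by neurturin, was at 2.65 in tooth and 0.08 in skin. The difference of -2.57 ± 0.21 was 5.95-fold toward tooth, and 341 genes (2.23% of those measured in both tissues) were further in that direction. Both signals lay well clear of background, by 7.17 in tooth and 3.81 in skin. The difference exceeded 2-fold in all 14 alternatives, with a range of -3.21 to -2.46.

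Gfra1, the co-receptor preferred by Gdnf, was at -3.06 in tooth and -3.39 in skin. The difference of -0.32 ± 0.37 was within its error, and its sign turned with normexp (0.22) and with no background correction (0.09). The skin signal lay only 0.34 above the lowest signal called well above background. A difference between the tissues was not detectable for Gfra1 at this signal.

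Ret, the kinase shared by all GFRα co-receptors, was at -4.05 in tooth and -2.45 in skin. The difference of 1.59 ± 0.37 was 3.02-fold toward skin, and 6.46% of genes were further in that direction. Ret was dim in both tissues, 0.47 and 1.28 above the lowest signal called well above background. Its difference fell below 2-fold in 2 alternatives, normexp (0.88) and spike-in scaling (0.96). With 75th percentile scaling Ret was the only receptor of the 5 that was higher in skin, although Gfra1 was too with normexp or no background correction, and Gfra2, which signals through it, lay furthest the other way.

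**Figure D2:**
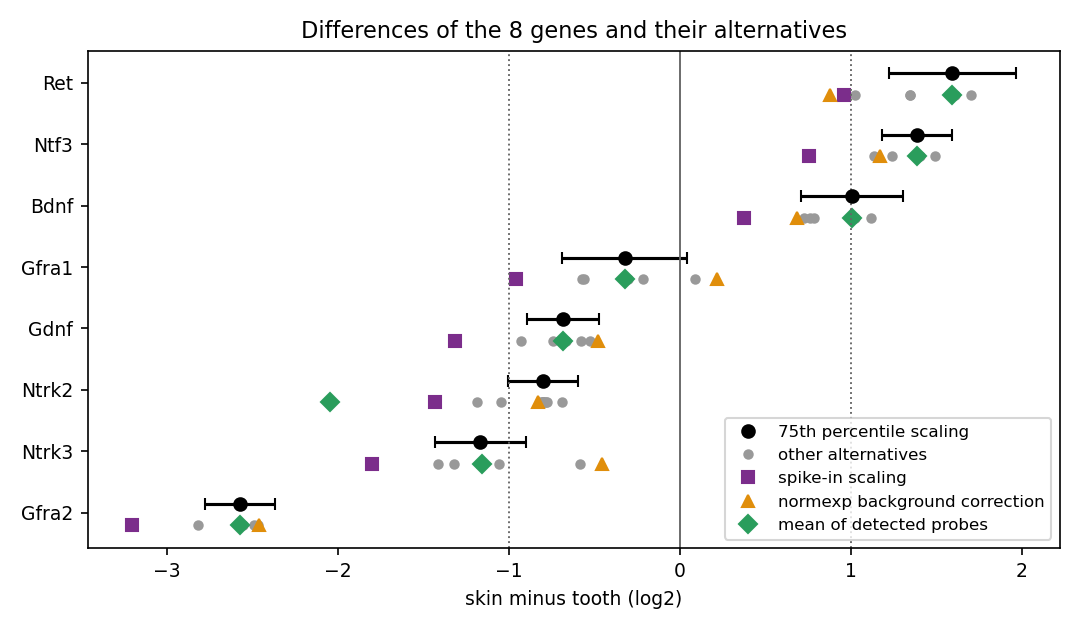
Difference of each gene, skin minus tooth (log2), with the scanner model's error (black) and, below it, under each alternative setting (coloured and grey marks), where dotted lines mark 2-fold. Gfra2 stays past 2-fold toward tooth under every setting, marks of Gfra1 fall on both sides of 0, and the mean over probes well above background in at least 1 tissue moves Ntrk2 to -2.05, which includes the dim skin signal of the variant 2 probe.

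The rest of the ligands and receptors of both families were set beside these genes. Of 22 family genes considered, 18 were measured in both tissues, 7 of them higher in skin and 11 higher in tooth, with a median of -0.59. Of these 18, 4 reached 2-fold in each direction, beside 11.4% toward skin and 12.3% toward tooth of all genes measured in both tissues. The counts at 2-fold depended on the setting, with 1 in skin and 10 in tooth under spike-in scaling, 3 and 7 under array median scaling, and 2 and 2 with normexp. Over all genes measured in at least 1 tissue, the shares in the same order were 9.02% and 32.8%, 11.6% and 20.1%, and 10.0% and 9.60%. Among neurotrophin ligands, Ntf5, the other ligand of TrkB, was at 1.76 in tooth and 0.99 in skin, differing by -0.77. The neurotrophin ligands considered were thus split, with Bdnf and Ntf3 toward skin and Ntf5 toward tooth, so that the ligands of TrkB lay in opposite directions.

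Among neurotrophin receptors, Ngfr, the low-affinity receptor shared by all neurotrophins, was at 1.97 in tooth and 0.83 in skin, differing by -1.14. Ntrk2, Ntrk3 and Ngfr therefore all lay toward tooth. Of the sortilin family, which binds proneurotrophins, Sort1 (0.56, negative under spike-in scaling) and Sorcs1 (0.80) lay toward skin. The probes of Sorcs2 disagreed, at -0.76 and 1.03, and Sorcs3 was well above background in neither tissue. The 6 receptors measured had a median of -0.78.

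Among GDNF family ligands, Nrtn (neurturin), the preferred ligand of Gfra2, was at 2.43 in tooth and 5.70 in skin. The difference of 3.27 was 9.68-fold toward skin, opposite in direction to Gfra2. Artn differed by -0.50, and Pspn and Gdf15 were measured in neither tissue. Of the co-receptors, Gfra3, preferred by artemin, was at 0.57 in tooth and -0.61 in skin, differing by -1.18. Gfra4 gave 0.43 with its brightest probe, a sign that turned under spike-in scaling, and -0.51, -2.12 and -1.10 with its other probes. Ncam1, an alternative receptor of Gdnf, gave -0.70 with its brightest probe and -0.93 and 0.90 with the others, and Gfral was measured in neither tissue. Gfra1, Gfra2 and Gfra3 thus all lay toward tooth with 75th percentile scaling, with Gfra1 within its error and turned by the background settings above.

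**Figure D3:**
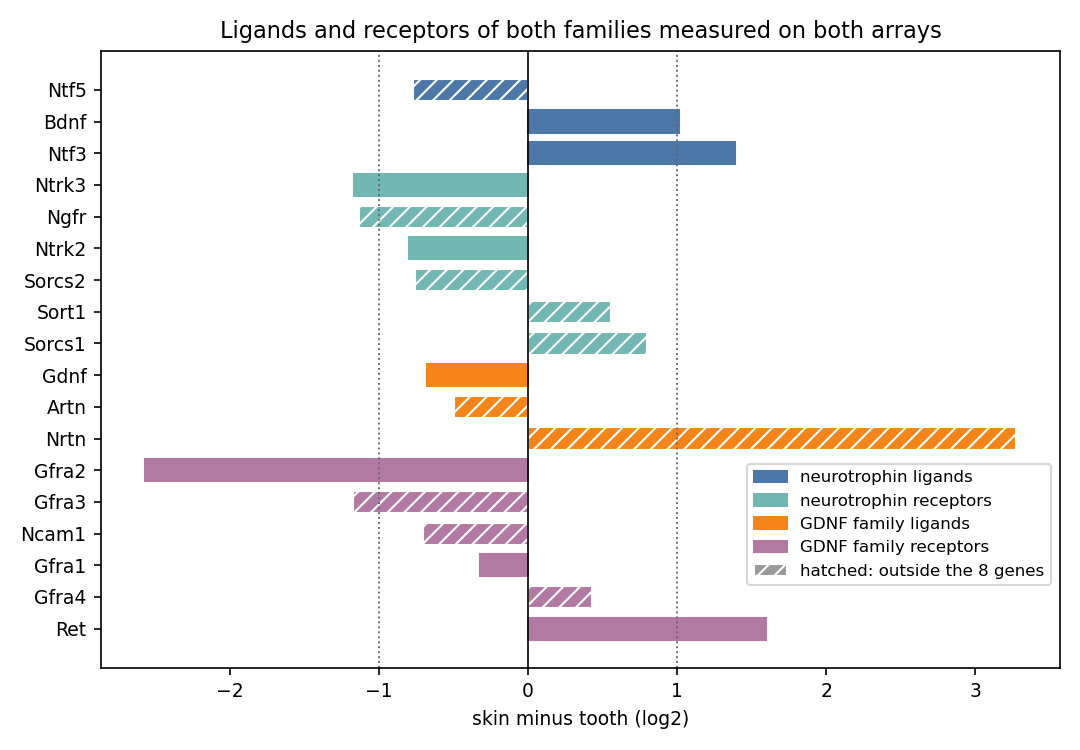
Difference of the 18 ligands and receptors measured in both tissues, skin minus tooth (log2, brightest probe of each gene), coloured by group, with hatched bars for genes outside the 8 and dotted lines at 2-fold. Nrtn reaches furthest toward skin (3.27) and Gfra2 furthest toward tooth (-2.57).

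More signal partners of these receptors were higher in tooth than in skin, mostly by less than 2-fold. Of 18 adaptors and partners on the array, 16 were measured, 4 higher in skin and 12 higher in tooth. Of these, 0 and 4 were at least 2-fold, beside 14.2% and 15.5% of all genes. The median of -0.30 lay within the quartiles of all genes given above, but it became -0.63 with the mean over all probes of a gene. Under spike-in scaling the median was -0.93 and 0 of the 16 were higher in skin. Kidins220 (0.13) and Bex1 (0.004) counted toward skin by their brightest probes. The other measured probes lay toward tooth, at -2.2 and -1.02 for Kidins220 and at -1.28 for Bex1. The count at 2-fold toward tooth became 2 with normexp and 7 under spike-in scaling. Maged1 (-1.98) and Bex3 (-1.34), which both bind Ngfr, were at least 2-fold higher in tooth. Dok5 and Dok6, adaptors that bind Trk receptors and Ret, were measured in tooth alone, which put them at least 3.08-fold and at least 2.28-fold higher there. Of the enzymes that cleave proneurotrophins, 7 of 9 were measured, with 3 higher in skin and 4 in tooth. Pcsk6 was 2.83-fold higher in skin, Pcsk5 was higher in tooth (-2.75), and Furin differed by -0.03.

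Other growth factors of nerves and their receptors were split between the tissues. Of 15 considered, among them the immediate early genes Egr1 and Arc, all were measured, 8 higher in skin and 7 in tooth. At 2-fold there were 7 toward skin and 5 toward tooth, beside 14.2% and 15.5% of all genes. The median was 0.35, or -0.29 under spike-in scaling. In skin, Cntfr (3.47), the receptor subunit for ciliary neurotrophic factor, and Lifr (1.73) and Lif (1.22) were higher. Erbb2 (1.08) and Erbb3 (at least 9.82-fold) were also higher in skin. Egr1 (2.80) and Arc (1.06), which many receptors induce, were higher in skin too. Without Egr1 and Arc, left out after their values were seen, 6 of 13 genes were higher in skin and 7 in tooth. Of those 13, 5 reached 2-fold in each direction, and the median was -0.28. In tooth, the heparin-binding growth factors Mdk (-3.29) and Ptn (-1.63), Manf (-1.87) and Nrg1 (-1.36) were higher. Alk, a reported receptor for Mdk and Ptn, was at least 2.35-fold higher in tooth. Nrg1 and its receptors Erbb2 and Erbb3 thus lay in opposite directions, as Nrtn and Gfra2 did.

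Markers of the cell types that could bear these receptors differed between the samples too. Of 17 neuron and axon markers, 10 were measured, with 4 higher in skin and 6 in tooth, and a median of -1.59. Over the 7 measured in both tissues the median was 0.05. Their summed level, in multiples of the 75th percentile, was 59.1 in tooth and 37.2 in skin. Tubb3 (-3.17), Th (-2.02) and Stmn2 (-1.16) were at least 2-fold higher in tooth, as were Isl1 (at least 10.6-fold), Uchl1 (at least 3.58-fold) and Nefl (at least 2.57-fold). Pou4f1 (1.81) was higher in skin, and Snap25 differed by 0.05. The defining markers Prph, Nefm, Nefh, Elavl3, Scn9a, Scn10a and Dbh were well above background in neither tissue. Of the 10 neuron markers measured, 6 thus lay toward tooth, the direction of Ntrk2, Ntrk3 and Gfra2, and 4 toward skin, or 2 under spike-in scaling. Over the 7 measured in both tissues, a subset taken after the values were seen, 4 lay toward skin and 3 toward tooth. The part of neuron markers in the result was not tested.

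Of 12 Schwann cell and satellite glia markers, 10 were measured, with 7 higher in skin and 3 in tooth, and a median of 0.44 that became -0.20 under spike-in scaling. Their summed level was 12.0 in tooth and 35.9 in skin, but 11.6 in tooth and 7.69 in skin without Pou3f1 and Egr2, which were left out after their values were seen. Sox10 (3.21), Egr2 (5.51) and Pou3f1 (6.23) were higher in skin, in the direction of Ret. S100b (-2.39) and Fabp7 (-2.37) were higher in tooth. Mbp was higher in tooth with its brightest probe (-1.02) but differed by only -0.27 and 0.03 with its other probes. Foxd3 and Cdh19 were measured in neither tissue. The part of glial markers in the result for Ret was not tested. Sox10 also marks melanocytes, and all 5 melanocyte markers lay toward skin, at a median of 6.68, with summed levels of 2.30 in tooth and 173 in skin.

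Of 7 Merkel cell and touch receptor markers, all were measured, 4 higher in skin and 3 in tooth, with summed levels of 16.1 in tooth and 5.68 in skin. Most of the tooth sum came from Krt18 and Krt8, at log2 levels of 3.50 and 1.85 in tooth. Their median was 0.64, but -1.29 over the genes measured in both tissues. Atoh1 (at least 8.62-fold) and Krt20 (at least 16.1-fold), the defining markers of Merkel cells, and Gfi1 (at least 2.58-fold) were well above background in skin only. Krt18 (-2.73) and Piezo2 (-1.99) were higher in tooth. All 8 skeletal muscle markers lay toward skin by at least 2-fold, at a median of 3.24, with summed levels of 10.1 in tooth and 99.7 in skin. Muscle and melanocyte markers lay in the direction of Bdnf, Ntf3 and Ret, whereas Merkel cell markers were split, and their part in the result was not tested.

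**Figure D4:**
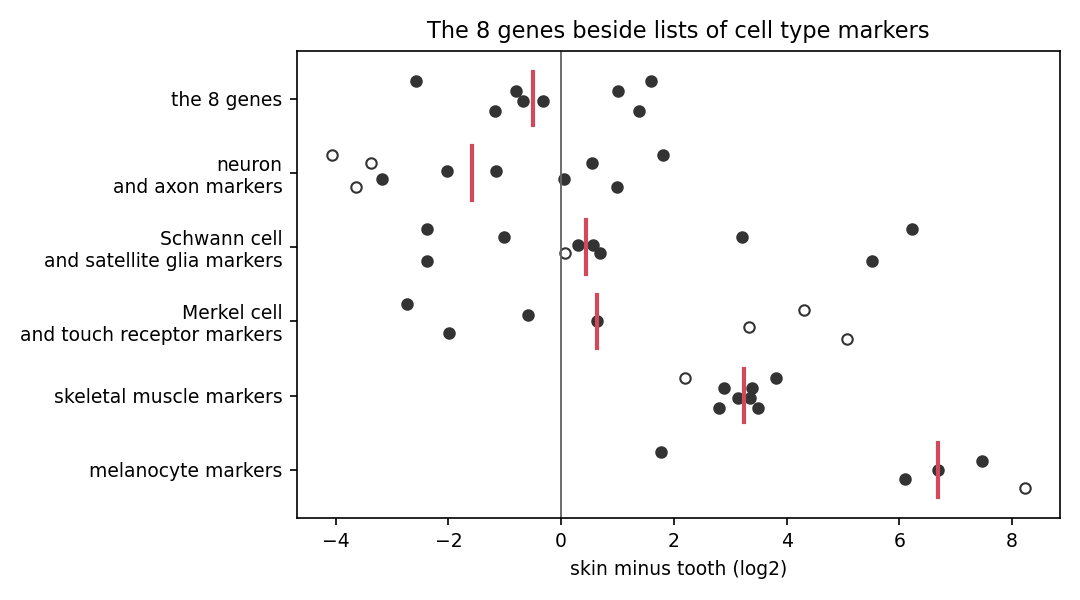
Difference of each measured gene, skin minus tooth (log2), for the 8 genes and for 5 lists of cell type markers, with red bars at the medians and open circles for genes well above background in 1 tissue only. The 8 genes and the neuron, glia and Merkel cell markers lie on both sides of 0, and all muscle and melanocyte markers lie toward skin.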

How the data were processed

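Levels of 8 neurotrophic genes were compared between 1 tooth and 1 skin array (SurePrint G3 Mouse, 1 dye). Per the file headers and labels, the authors deposited spot intensity values made with Agilent Feature Extraction 10.7.3.1, which subtracts background, detrends each array and puts a surrogate in place of very dim signals (22.8% of spots in tooth, 25.5% in skin). The deposited value table holds ratios of the processed signal to 1 factor per array, on a linear scale and not centred per gene, with medians of 0.0810 in tooth and 0.0989 in skin, and served only as an alternative. The factor was not given in the sources used here, beyond the percentile shift in GeneSpring named by the authors.

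Processed signals were read with Python 3.11.15, numpy 2.4.6 and pandas 2.3.3. Control spots and spots called outliers (137 in tooth, 146 in skin) were left out, spots of a probe were averaged, and log2 values were taken relative to the 75th percentile, which was 428 in tooth and 276 in skin. A probe was measured where more than 50% of its spots were well above background. The brightest probe stood for a gene. Where 1 tissue was dim, a lower bound was computed against the lowest signal called well above background on that array, or the probe's own if higher. Over probes with repeated spots, the median SD between spots was 0.08 in tooth and 0.09 in skin. With 1 array per tissue no test was run, and 2-fold served as the size limit. Alternatives covered scaling (array median, quantile, 8 spike-in transcripts, 9 housekeeping genes), background (normexp with limma 3.58.1 in R 4.3.3, offset 50, or none), the deposited table, the probe rule, the rule on dim probes and outlier spots. Lists without Egr1 and Arc, or without Pou3f1 and Egr2, and lists of markers measured in both tissues were added after seeing the data. The code was tested on simulated data.

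Coordinates are those of the array design (mm9). Gene names were matched by transcript to a RefSeq table of another build, used for names only, in which 27234 of 33182 named probes (82.1%) and all 13 probes of the 8 genes were found. All 8 genes are described with all their probes. The text names the ligands and receptors of both families, and from the longer lists the genes that differed by at least 2-fold or that a result turned on. Some listed genes and probe sequences are not reported here, and the list counts leave those genes out. The genes and lists were chosen with earlier results of these data known.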

Additional observations from a re-analysis of the deposited data

How the results depend on the processing

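Of 112 differences recomputed for the 8 genes under 14 alternatives, 110 kept their direction, and the exceptions were those of Gfra1 given above. Many of the 112 could not move. The rules on dim probes left every difference unchanged, as all 8 genes were well above background in both tissues. Averaging over probes could move only Ntrk2 and Ntrk3, the genes with more than 1 probe. Keeping outlier spots left the differences almost unchanged. The settings are therefore not 14 independent checks. The median over the 8 genes became -0.75 with array median scaling, -1.14 with spike-in scaling, -0.12 with normexp and -0.22 with no background correction. The count at least 2-fold higher in skin, 3, became 0 with spike-in scaling and 1 with normexp, and the count in tooth, 2, became 4 with spike-in scaling, 1 with normexp and 1 with no background correction. At 1.5-fold the count in tooth was 4, and at 4-fold the counts were 0 in skin and 1 in tooth. Over all genes, spike-in scaling put 9.02% past 2-fold toward skin and 32.8% toward tooth, and normexp gave 10.0% and 9.60%. Of the 8 spike-in transcripts, 7 differed by less than 0.05 between arrays and 1 by 0.54. The cause of these shifts was not tested. No paired analysis was possible because each tissue had 1 array. Bdnf, Ntrk3, Gfra1 and Ret lay close to the lowest signal called well above background in at least 1 tissue.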

Other observations

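The variant 1 probe of Ntrk2 was printed in 10 spots on each array. In tooth the spots ran from -6.61 to -3.99 with a median of -6.25, and in skin from -6.02 to -3.96 with a median of -5.89. The same printed spot was the brightest on both arrays, and the next brightest spots were at -5.51 in tooth and -5.62 in skin. It was called well above background in tooth, and none of the 10 spots was so called in skin. The mean of the probe given above left that spot out as an outlier in tooth but kept it in skin. With the spot left out on both arrays, the difference of the probe, skin minus tooth, was 0.35. Both signals were then not well above background.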
